A study of Mus musculus with 3 samples.

Results

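Transcripts of ribosomal proteins and of translation factors were examined in neural retina taken from wild-type mice on postnatal day 10. The module holds 115 of the 12422 non-control probe sets of the array and 84 of the 8251 genes named there. A probe set is a group of short oligonucleotides that together give 1 signal for a transcript or for several related ones. Members were chosen by gene symbol alone, from probe sets annotated with a single symbol. Ribosomal proteins (symbols starting with Rpl or Rps and a digit, plus Rplp and Rpsa) gave 49 probe sets of 35 genes, and initiation and elongation factors (Eif and Eef symbols) gave 66 probe sets of 49 genes. The S6 kinases, whose symbols start with Rps6k, were left out. No measured value entered this rule, but it was set with earlier results of these data known.

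The 3 samples form 1 group and are called pools 1, 2 and 3 here, which are only names. All of the mice were wild type, on a background mixed from 129/SvEv and C57BL/6, and were littermates of Rp1-/- animals, which are not analysed here. Total RNA of each pool came from the neural retinas of 3 to 4 mice, dissected between 1 and 2 pm, and was measured on an Affymetrix U74Av2 array. For pools 2 and 3 the sample title includes rp1 although their descriptions give the mice as wild type, and the descriptions were followed here. The labels do not tell whether pools share mice, so the spread between pools may be partly technical. With 1 group there is no contrast to test, and the results below are levels, spreads and counts, set beside the same quantities over the whole array.

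A ribosome is built from a large and a small subunit, each made of ribosomal RNA and many ribosomal proteins that are needed in equal numbers. Initiation factors bring the messenger RNA, the initiator transfer RNA and the small subunit together at the start codon, and elongation factors then deliver aminoacyl-transfer RNAs and move the ribosome along the message. Messages of ribosomal proteins and of several of these factors begin with a C followed by a run of pyrimidines, the terminal oligopyrimidine tract, through which mTOR signalling controls their translation. In the retina at this age photoreceptors are enlarging their outer segments, whose proteins are made on these ribosomes.

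Start regions were looked up for all 84 member genes in a promoter table from RefSeq (build GRCm38.p6), which listed 69 of them with 93 start windows of 300 bases, 250 before and 50 from the annotated start onwards. A tract at the annotated start was defined as a C at the start base followed by 4 letters that are each C or T, on the transcribed strand. Of 37 windows of ribosomal protein genes 5 (13.5%) had it, of 56 windows of translation factor genes 2 (3.57%), and among all 32851 windows listed it was in 823 (2.51%). Counted by gene, it was present in 5 of 28 ribosomal protein genes, in 2 of 41 factor genes and in 2.64% of 17422 protein-coding genes outside the module. Those 7 windows are shown because they carry the letters at the annotated start itself. Each is 60 bases long, runs 5′ to 3′ on the transcribed strand and has the annotated start as base 31, and the capitals mark the longest unbroken run of C and T in it.
Rpl35a, chr16:33056452-33056511, plus strand: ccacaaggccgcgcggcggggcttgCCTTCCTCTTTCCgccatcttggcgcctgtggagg
Rpl38, chr11:114668550-114668609, plus strand: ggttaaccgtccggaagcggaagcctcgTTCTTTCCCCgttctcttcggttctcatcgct
Rps10, chr17:27635215-27635274, minus strand: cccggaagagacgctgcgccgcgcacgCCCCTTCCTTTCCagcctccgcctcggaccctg
Rps18, chr17:33955636-33955695, minus strand: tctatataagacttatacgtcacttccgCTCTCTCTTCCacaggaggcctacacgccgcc
Rps27, chr3:90213619-90213678, minus strand: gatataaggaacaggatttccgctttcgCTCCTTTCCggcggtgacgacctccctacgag
Eif2s3x, chrX:94212622-94212681, minus strand: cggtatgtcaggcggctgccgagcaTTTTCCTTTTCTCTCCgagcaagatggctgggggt
Eif3f, chr7:108934385-108934444, plus strand: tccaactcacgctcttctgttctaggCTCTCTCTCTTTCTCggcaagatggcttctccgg

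Another 3 windows are shown because the signals of their genes are described at length: the Y-linked copy of Eif2s3x and both eEF1A genes.
Eif2s3y, chrY:1010565-1010624, plus strand: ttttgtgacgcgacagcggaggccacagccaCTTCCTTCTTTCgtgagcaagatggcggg
Eef1a1, chr9:78481695-78481754, minus strand: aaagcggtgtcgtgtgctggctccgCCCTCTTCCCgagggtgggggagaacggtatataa
Eef1a2, chr2:181156986-181157045, minus strand: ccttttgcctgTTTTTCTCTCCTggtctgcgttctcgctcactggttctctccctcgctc
In Eif2s3y the run begins at the base next after the annotated start, in Eef1a1 it begins 5 bases before the start and in Eef1a2 it begins 19 bases before it. An annotated start can lie away from the start used in a tissue, so a wider search covered 50 bases on either side. It took any stretch of 8 letters that are each C or T and of which the first is C. The stretch could also lie inside a longer run that begins with T. It was found in 20 of 28 ribosomal protein genes (71.4%), in 18 of 41 factor genes (43.9%) and in 32.6% of protein-coding genes outside the module. The sequence CGGAAG, the core bound by ETS-family transcription factors, was searched on both strands of the 300 bases. It was in 19 of 28 ribosomal protein genes (67.9%), in 22 of 41 factor genes (53.7%) and in 23.3% of protein-coding genes outside the module. The reverse complement of this core, CTTCCG, ends a pyrimidine run, so both searches can hit the same bases. Some windows of a gene overlap, a match is not a binding site or a cause, and a missing match says only that these letters are not in the window.

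A signal was called above background on an array when it exceeded the 90th percentile of a background list of 84 probe sets for 68 genes of liver, pancreas, muscle and similar organs. This limit was 375, 458 and 321 units on arrays 1, 2 and 3. The deposited intensities had trimmed means of about 500.3, 500.2 and 500.3, and medians of 234, 254 and 243. The 3′ to 5′ signal ratio of the Actb control, a sign of RNA integrity, was 1.20, 1.44 and 1.69, and that of Gapdh was between 0.885 and 0.947. All 6 rod markers measured were above background on every array, with a summed signal of 44166, 46620 and 73012 in pools 1, 2 and 3, and both pigment epithelium markers were above it on none. Of 5 lens markers 3 exceeded the limit on all arrays and the others on some, and their sum was 48961, 7409.5 and 164375. Of 3 red blood cell markers 2 were above on all arrays (Alas2 on none), with sums of 21740, 4512 and 14756. The lens and red blood cell sums were thus lowest in pool 2, and the lens and rod sums highest in pool 3. The rod sum does not stand for each of its markers, since the rod transcription factors Crx (8223, 7620 and 6475) and Nrl (519, 672 and 494) were lowest in pool 3. The part of these differences in any result on the module was not tested, and in pooled tissue fewer cells of a type and less RNA per cell cannot be told apart.

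Of the 115 member probe sets, 57 (49.6%) were above background on all 3 arrays, against 30.9% of all probe sets, and 44 (38.3%) were above it on none, against 54.2%. The other 14, above on 1 or 2 arrays, were a pair of Eif2s2 sets and 1 set each of Rpl22, Rpl7l1, Rps13, Eif2a, Eif2ak1, Eif2b5, Eif2s3y, Eif3e, Eif4e2, Eif5b, Eef1b2 and Eef1akmt1. By gene, 52 of 84 had at least 1 probe set above on all arrays, 23 of 35 ribosomal protein genes and 29 of 49 factor genes. Shares by gene were not computed over the array. The 30.9% and 54.2% are shares of probe sets, so the gene counts cannot be set against them. In 21 genes no probe set was above background on any array. These were Rpl32, Rpl35a, Rpl38, Rpl39, Rps14, Rps15, Rps20, Rps29 and the paralogs Rpl39l and Rps27l among ribosomal proteins, and Eif2ak2, Eif2ak3, Eif2ak4, Eif3f, Eif4e, Eif4ebp1, Eif4enif1, Eif4h, Eif5a, Eef1g and Eef2k among the factors. Such a value is a property of that probe set on that array, not evidence that the transcript is missing, as the genes with several probe sets show further on. Of the total signal, members made up 4.02% in pool 1, 3.84% in pool 2 and 3.77% in pool 3, of which ribosomal proteins gave 2.91%, 2.79% and 2.69%. Probe sets differ in how strongly they report a transcript, so members are not ranked against each other by level. Signals are in deposited intensity units and stand in the order of pools 1, 2 and 3.

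Among proteins of the large subunit, 11 of 19 probe sets were above background on all arrays, 7 on none and 1 on some. Rpl19, which helps bridge the subunits, had signals of 11274, 10177 and 10729.8 in pools 1, 2 and 3, a mean of 10727 ± 549 (SD, n = 3) and a range from lowest to highest of 1.11-fold, the narrowest of the large subunit members above background on all arrays. Rpl22, an RNA-binding protein of the subunit, was at the other end. It had 1057, 835 and 659, with 850.0 ± 199 as mean (SD, n = 3) and a 1.60-fold range, highest in pool 1 and lowest in pool 3. Its second probe set had 396, 321 and 104, above background in pool 1 alone. Rpl41, a very short protein of the large subunit, had 41028, 31708 and 46046, lowest in pool 2. Its probe set is of a class that matches several similar sequences, so its signal cannot be credited to Rpl41 alone. Rplp0, the anchor of the stalk that recruits translational GTPases, gave 13056, 12989 and 14936 with a range of 1.15-fold, highest in pool 3. Rpl6, Rpl8 and Rpl37a, further large subunit proteins, show how the order of pools differed. Rpl6 had 6635, 5773 and 6059, highest in pool 1, Rpl8 had 9121, 8346 and 10051, highest in pool 3, and Rpl37a had 7161, 4954 and 7919.5, also highest in pool 3 and lowest in pool 2. Rpl7a had 5795, 5416 and 4431 from a probe set that carries the same accession as sets annotated as Surf1 and Surf2, its neighbours in the Surfeit gene cluster. Of the 11 large subunit sets above background on average, 5 were highest in pool 1, 3 in pool 2 and 3 in pool 3. The stalk partners of Rplp0, Rplp1 and Rplp2, and the core protein Rpl3, are not analysed here.

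Small subunit members were above background on all arrays in 12 of 24 probe sets, on none in 11 and on some in 1. The narrowest range, 1.06-fold, belonged to a probe set annotated as Rps24, with 25415, 23933 and 24004. That probe set carries the same sequence accession as a probe set annotated as Rpl7, which had 10128, 12459 and 9675, so its gene is uncertain. A different Rps24 probe set was above background on no array, with 159.7, 177 and 169. The widest range, 1.57-fold, was that of Rps28, a small protein near the messenger RNA exit, with 12544, 7976 and 10198 and 10239 ± 2284 on average (SD, n = 3). A second Rps28 set had 23449, 19183 and 18570.0, highest in pool 1 as well. Like that of Rpl41, it is of a class that matches several similar sequences. Another Rps28 set had 183, 72.5 and 148, under the limit on all arrays. Rpsa, a small subunit protein also known as a laminin receptor, had 2839.5, 2205 and 2514, a 1.29-fold range with pool 1 highest. Rps3, which lines the entry of the messenger RNA channel, had 9836, 8412 and 12652, highest in pool 3 and lowest in pool 2. Rps7, which can also bind the p53 regulator Mdm2, had 9455, 11972 and 10639.7, and Rps19, the protein most often mutated in human Diamond-Blackfan anaemia, had 2014, 3098 and 2033. Both were highest in pool 2, unlike Rps28, Rpsa and Rps3. Rps6, the target of the S6 kinases, is not analysed here. Among the windows shown above, Rps10 had 7649.5, 7000.0 and 5877, Rps18 had 15568, 12946 and 13919.9 and Rps27 had 1028, 881 and 1166, all above background. Rpl35a, with the same kind of tract, had values between 68.4 and 81.1 and the Rpl38 sets had 86.9, 97.5 and 35.8 and 171, 140.2 and 19.5, all under the limit.

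Paralogs of ribosomal proteins, a group formed after the values were seen, were above background on all arrays in 1 of 5 probe sets. It was a set of Rps4l, the autosomal relative of X-linked Rps4x, with 929.8, 869 and 715. Its design allows it to match similar transcripts, and another Rps4l set with 245, 186 and 267 was above background nowhere. Rpl39l had 26.7, 154 and 52.4 and Rps27l had 41.5, 132 and 42.4, and neither exceeded the limit on any array.

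**Figure D1:**
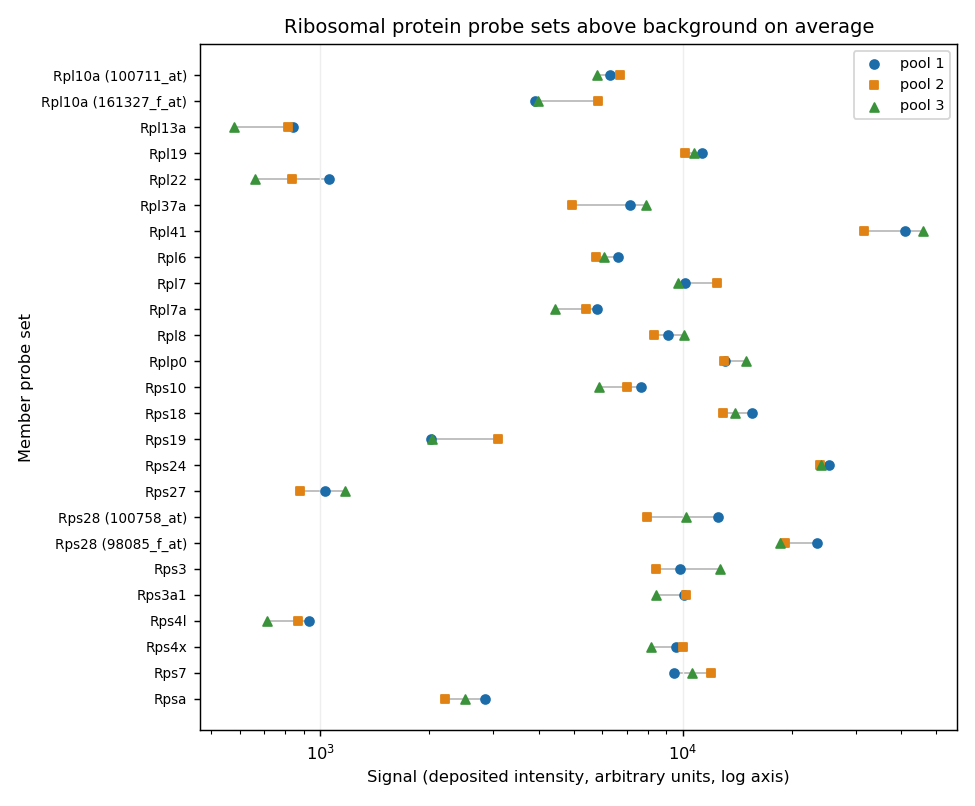
Signal of each of the 25 ribosomal protein probe sets above the mean background limit on average (rows, probe set name added where a gene has several) in pools 1, 2 and 3 (circle, square, triangle) on a log axis in deposited intensity units, with a line joining lowest and highest. The lines are short, from 1.06-fold for the set annotated as Rps24, whose gene is uncertain, to 1.60-fold for Rpl22, and no pool is highest throughout.

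Initiation factors gave 57 probe sets, of which 28 were above background on all arrays, 20 on none and 9 on some. For start codon selection and subunit joining the counts were 6 of 8 on all, 1 on none and 1 on some. Eif1b, a close relative of eIF1, the factor that keeps the scanning ribosome from stopping at wrong codons, had the narrowest range of the module. Its signals were 3288, 3277 and 3204, 3256 ± 45.8 on average (SD, n = 3), a range of 1.03-fold. Eif5, which makes eIF2 hydrolyse its GTP at the start codon, had 1042, 964 and 1088, 1.13-fold. The autosomal and the X-linked gene of eIF1A, Eif1a and Eif1ax, each had a pair of probe sets above background. For Eif1a they gave 628, 769 and 520.4 and 671, 680.4 and 508, both highest in pool 2 and lowest in pool 3. For Eif1ax they gave 959.9, 1023 and 784, highest in pool 2, and 687, 652 and 573, highest in pool 1, so the sets differ on the highest pool while both are lowest in pool 3. Eif5b, the GTPase that joins the subunits, had 495, 357 and 456, below the limit in pool 2.

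eIF2 carries the initiator transfer RNA, and 1 of its 4 probe sets was above background on all arrays and 3 on some. Eif2s3x, the X-linked gamma subunit, had 3937, 4045 and 3571, with a mean of 3851 ± 248 (SD, n = 3) and a 1.13-fold range. Eif2s3y, its Y-linked copy, had 357, 332 and 477, above background only in pool 3. Its probe set can match related transcripts. Xist, which is transcribed from the inactive X chromosome of female cells, had 1168, 3166 and 71.5, so it was lowest in the pool where Eif2s3y was highest. Of genes on the Y chromosome, Kdm5d, Uty and Sry exceeded the limit on no array. The labels do not give the share of male and female mice in each pool, and its part in these values was not tested. The beta subunit Eif2s2 had 295, 487 and 279.5 by a probe set above background in pool 2 alone and 375, 132 and 253 by another above it in pool 1 alone, so the order of pools is not settled. The alpha subunit, Eif2s1, is not analysed here.

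eIF2B, which reloads eIF2 with GTP, was above background on all arrays in 4 of 5 probe sets. Its catalytic subunit Eif2b5 had 531, 486 and 546 by 1 probe set, a range of 1.12-fold. Another Eif2b5 set had 289, 302 and 491, a 1.70-fold range, above background in pool 3 alone. The regulatory subunit Eif2b2 had 776, 908 and 594, a range of 1.53-fold with pool 2 highest. By contrast, none of the 4 kinases that phosphorylate eIF2 to slow initiation was above background on all arrays. Eif2ak2 (PKR, activated by double-stranded RNA) had 77.8, 113 and 117, Eif2ak3 (PERK, in the endoplasmic reticulum) had 165, 222 and 243 and Eif2ak4 (GCN2, which senses uncharged transfer RNA) had 264, 201 and 213. Eif2ak1, the haem-regulated kinase prominent in red blood cell precursors, exceeded the limit only in pool 1. Its signals were 619, 169 and 165, so pool 1 was at least 1.93-fold above the limit of pool 3. Pool 1 also had the highest red blood cell marker sum, 21740 against 4512 and 14756, and the part of this in the Eif2ak1 signal was not tested. Eif2d, which can deliver initiator transfer RNA without eIF2, had 528, 536 and 626, and Eif2a, to which a similar role has been ascribed, had 367, 563 and 211, above background in pool 2 alone.

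eIF3, the many-subunit scaffold on the small subunit, had 8 of 13 probe sets above background on all arrays, 4 on none and 1 on some. Its subunits did not share an order of pools. Eif3e had 332, 1094 and 491, above background in pools 2 and 3 only. Pool 2 was at least 2.92-fold above the limit in pool 1, and 3.29-fold above its value there, the widest range among members above background on average. Its second set, below the limit everywhere, had 36.4, 234 and 34.2. Eif3m had 1313, 1669 and 948, a 1.76-fold range with pool 2 highest, and Eif3a, the largest scaffold subunit, had 462, 664 and 544. Eif3f, whose window is shown above, had 124, 364 and 150.1 and stayed under the limit on all arrays. Eif3k, Eif3l and the better measured set of Eif3b ran the other way. Eif3k had 3244, 2398 and 2581, Eif3l had 2814, 2384 and 2729 and Eif3b had 1557, 1205 and 1297, each highest in pool 1 and lowest in pool 2. Eif3d, with 1975, 2113 and 2061, and Eif3c, with 4567, 4732 and 4125, hardly varied, by 1.07-fold and 1.15-fold. Of the 9 sets above background on average 5 were highest in pool 2, 3 in pool 1 and 1 in pool 3. Pool 2 was the highest for 1608 of the 4704 such sets of the whole array.

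Cap binding and helicase factors prepare the messenger RNA for the ribosome, and 5 of their 13 probe sets were above background on all arrays, 7 on none and 1 on some. They had the widest spread among the initiation groups with more than 1 probe set above background, with 0.31 as the median SD of log2 signal over those 5. The helicase Eif4a1 had 872, 1342 and 654, 956 ± 352 on average (SD, n = 3), a 2.05-fold range. Its only member probe set is of the class with reduced probe selection rules (suffix r). Eif4a2, a close relative of Eif4a1 that is abundant in brain, had 3440.2, 4973 and 3423, a range of 1.45-fold. Both genes were highest in pool 2 and lowest in pool 3. So was the only 1 of the 4 sets of Eif4b, a cofactor of the helicase, that was above background, with 1805, 1862 and 1071. The other 3 Eif4b sets were under the limit on all arrays. Of these, 1 with 280.4, 333 and 160 had the same highest and lowest pools. The scaffold Eif4g3 had 1509, 1091 and 1039.5, highest in pool 1. Eif4g2, a relative of the scaffold that does not bind the cap-binding protein, had 597, 836 and 799.6, lowest in pool 1. Eif4e, the cap-binding protein itself, had 74.9, 182 and 71.3 and 8.9, 56.3 and 27.1 in its probe sets, all under the limit, and the main scaffold Eif4g1 is not analysed here. Of the repressors that bind eIF4E, Eif4ebp2, the main one in brain, had 2259, 2046 and 1841 by its clearest set, highest in pool 1. A second set with 377, 504 and 398 was highest in pool 2, and another was under the limit. Eif4ebp1 had 157, 151 and 29.1, under the limit on all arrays. Eif6, which keeps free large subunits from joining, had 947, 734 and 626, a 1.51-fold range with pool 1 highest, and Eif5a, needed for difficult peptide bonds, had 26.3, 77.7 and 202, under the limit throughout.

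**Figure D2:**
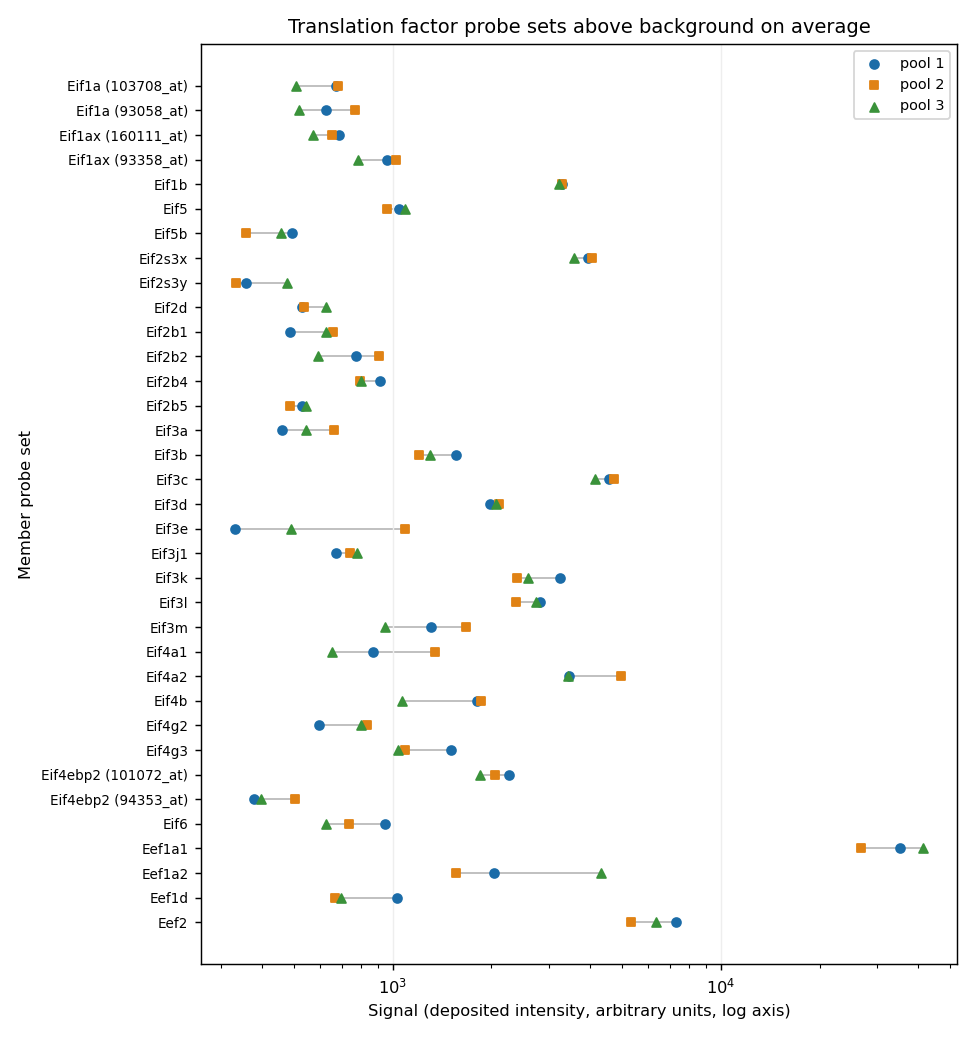
Signal of each of the 35 translation factor probe sets above the mean background limit on average (rows, probe set name added where a gene has several) in pools 1, 2 and 3 (circle, square, triangle) on a log axis in deposited intensity units, with a line joining lowest and highest. Eif3e, Eef1a2 and Eif4a1 have the longest lines, and all 4 Eef rows have pool 2 at the low end.

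Elongation factor symbols gave 9 probe sets, among them Eef1akmt1, which is a methyltransferase acting on eEF1A and not an elongation factor. Of the 9, 4 were above background on all arrays, 2 on some and 3 on none, and each of those 4 was lowest in pool 2. Over the array 1645 of the 4704 sets above background on average were lowest there, and among those outside the module at 5000 units and above 107 of 217 were. Eef1a1, the general carrier of aminoacyl-transfer RNA, had 35069, 26735 and 41329, a mean of 34378 ± 7321 (SD, n = 3) and a 1.55-fold range. Eef1a2, the form that replaces it in mature neurons and muscle, had 2044, 1564 and 4305, 2637 ± 1464 on average (SD, n = 3), a 2.75-fold range. Pool 3 was highest for both, and for Eef1a2 it stood apart from the other pools, which differed by less. Pool 3 also had the highest Actb ratio and the highest sums of several marker lists. In pools 1, 2 and 3 the rod sum was 44166, 46620 and 73012, although Crx and Nrl were lowest in pool 3. The Mueller glia sum was 9957, 10103 and 13250, the ganglion cell sum 1528, 1393 and 2802, and the vessel sum 1260, 1241 and 1977.5. Within the Mueller glia sum, the Glul set counted was lowest in pool 3 (1040.2, 1492 and 785), while another Glul set was highest there. The lens sum given above was highest in pool 3 too. Other lists were not: the amacrine sum was 4489, 3766 and 4255 and the cone sum 2330, 2946 and 2618. The microglia sum was 756, 892 and 677, and the bipolar marker had 443, 443 and 357. The red blood cell sum was highest in pool 1. The part of these differences in the Eef1a2 signal was not tested. Eef2, which moves the ribosome by a codon, had 7300.2, 5320.0 and 6352, a 1.37-fold range with pool 1 highest. Eef1d, a subunit of the factor that recharges eEF1A, had 1029.7, 668 and 699, a 1.54-fold range, also highest in pool 1. The partner Eef1b2 had 338, 86.7 and 329.5 by a set above background in pool 3 alone. Eef1g had 53.1, 41.5 and 66.1 and Eef2k, the kinase that inactivates eEF2, had 68.3, 84.3 and 125, all under the limit.

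Most members above background varied by less than 2-fold between pools. Among the 60 member probe sets above the mean background limit on average, the median SD of log2 signal over the 3 pools was 0.20, against 0.26 over the 4704 such probe sets of the array. The median range was 1.31-fold, against 1.42-fold. A range over 2-fold was seen in 3 of 60 members (5.0%), namely Eif3e, Eef1a2 and Eif4a1, against 11.5% of the array. The count depends on the limit. With it at the 75th percentile of the background list, which lets in dimmer sets, 12 of 78 members (15.4%) and 17.9% of the array had such a range, and with it at the 95th 3 of 54 members (5.56%) and 9.58% of the array. By the count at the 90th count 0 of 25 ribosomal protein probe sets and 3 of 35 factor probe sets passed. The spread falls as the signal rises, so it was also compared within bands of mean signal. Below 1000 units the median SD was 0.25 in 22 members and 0.28 in 2762 probe sets outside the module. From 1000 to 5000 units it was 0.20 in 18 members and 0.24 in 1665 outside. At 5000 units and above it was 0.18 in 20 members and 0.23 in 217 outside, with a range over 2-fold in 0 of 20 and in 21 of 217 (9.68%). Over all 3 bands the members had the lower median. Leaving out a pool gave 3 members over 2-fold without pool 1, 2 without pool 2 and 1 without pool 3, where the array had 6.55%, 5.01% and 4.32%.

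**Figure D3:**
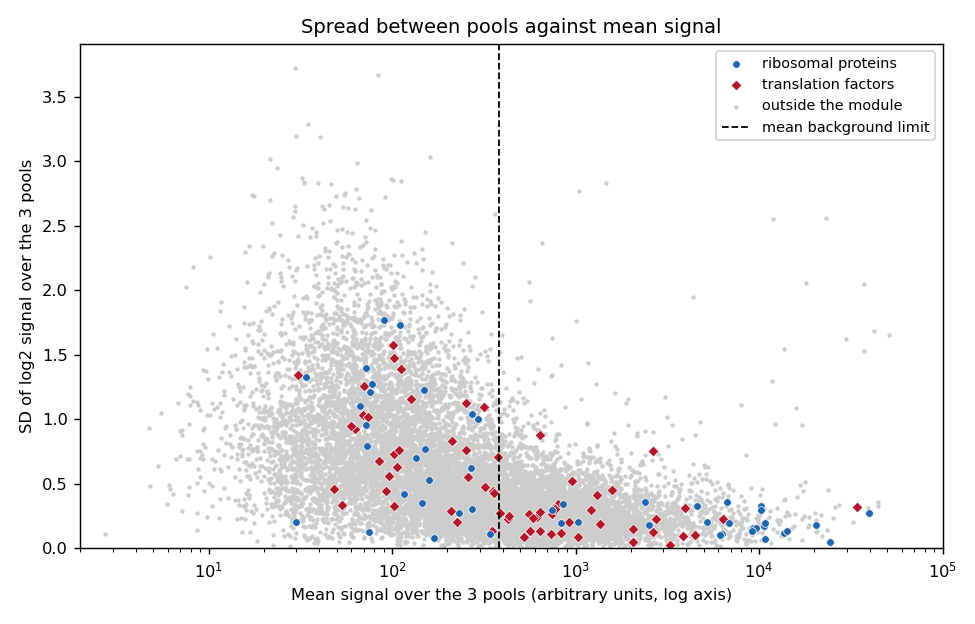
SD of log2 signal over the 3 pools against mean signal (log axis, deposited intensity units) for ribosomal protein probe sets (blue circles), translation factor probe sets (red diamonds) and all others (grey), with the mean background limit as a dashed line. To the right of the line the members lie low in the grey cloud, and the 2 highest red points there are Eif3e (SD 0.88) and Eef1a2 (SD 0.76).

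Pairs of pools were also compared across probe sets, which share arrays and are not independent replicates, so the correlations are descriptions. Pearson's r of log2 signal over the 115 members was 0.945 for pool 1 with pool 2, 0.946 for pool 1 with pool 3 and 0.943 for pool 2 with pool 3. Over all 12422 probe sets these were 0.898, 0.883 and 0.873. Over the 60 members above background on average it was 0.978, 0.985 and 0.974, against 0.903, 0.914 and 0.877 over the 4704. Such an r depends on how wide a range of signals the probe sets span.

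The direction in which ribosomal proteins deviated in a pool changed with the scaling of the arrays. The deviation of a pool was taken as log2 signal minus the probe set's mean over the 3 pools. For the 25 ribosomal protein probe sets above background on average its median was 0.073, −0.030 and −0.026 in pools 1, 2 and 3, and for the 35 factor probe sets it was 0.034, 0.026 and −0.074. Over all 4704 such probe sets it was 0.023, 0.0013 and −0.016. How far such a median varies between pools was not tested, since the median SD of 0.20 is that of single probe sets. After quantile normalization of the arrays the ribosomal protein medians became 0.058, 0.15 and −0.22, so pool 2 changed sign and became the highest and pool 3 fell. With each array centred on its median they were 0.13, −0.090 and −0.023. Over all members, including those under the limit, the ribosomal protein median in pool 2 was 0.064. The order of the pools for ribosomal proteins therefore depends on the scaling and on the members counted, while their median in pool 1 was above 0 under all 3 scalings. The median over all 4704 probe sets in pool 1 was above 0 as well. It was 0.023 as deposited, 0.079 with median centring and 0.0027 after quantile normalization. At high signal the arrays differ in a way that reaches beyond the module. Of the 217 probe sets outside it at 5000 units and above, 107 were lowest in pool 2 and 122 highest in pool 3. Of the 20 members in that band 12 were lowest in pool 2, but 9 were highest in pool 1, 5 in pool 2 and 6 in pool 3.

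**Figure D4:**
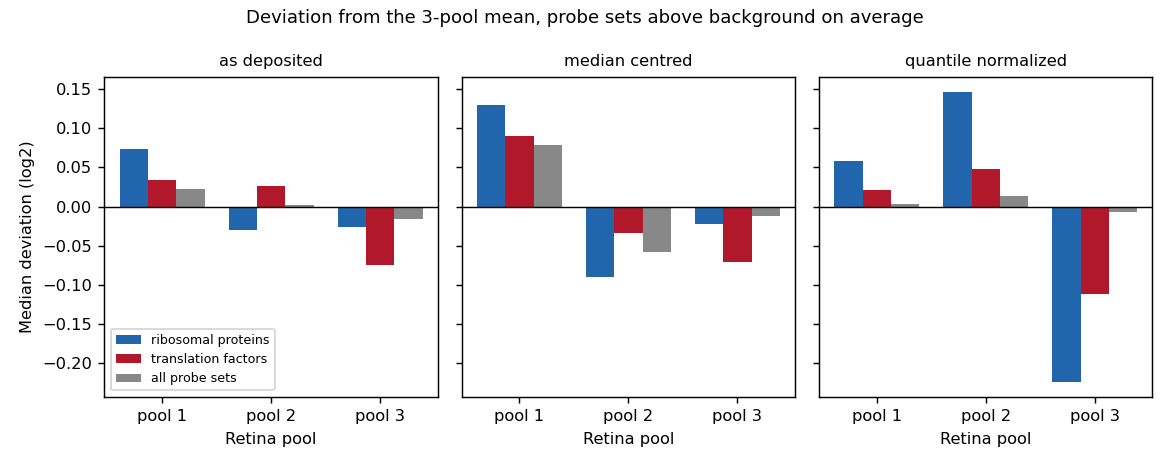
Median deviation of log2 signal from the 3-pool mean for ribosomal proteins (blue, 25 probe sets), translation factors (red, 35) and all probe sets above the mean background limit on average (grey, 4704), by pool, under the deposited scale, median centring and quantile normalization. The blue bar of pool 2 is at −0.030, −0.090 and 0.15 in the 3 panels, so its sign depends on the scaling.

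Genes with several member probe sets show how far a call rests on the probes. There were 60 genes with a single set and 24 with 2 or more, which together had 55 sets. In 11 of the 24 a set above background on all arrays stood beside one above it on none. The same count was not made for the other genes of the array. Rps4x is an example, with 5 sets of which 1 had 9559.8, 10002 and 8158 and 4 were under the limit everywhere. Only 5 genes had more than 1 set above background on all arrays. In 3 of them (Rpl10a, Rps28 and Eif1a) the sets named the same highest pool, and in Eif1ax and Eif4ebp2 they did not. For Rpl10a and Rps28, 1 of these sets is of the class that matches several similar sequences. By design class, 48 of 90 plain member sets were above background on all arrays, against 2 of 14 sets of the class with reduced probe selection rules (suffix r). The same counts over all probe sets of each class were not made, so whether this is particular to the members is not known.

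**Figure D5:**
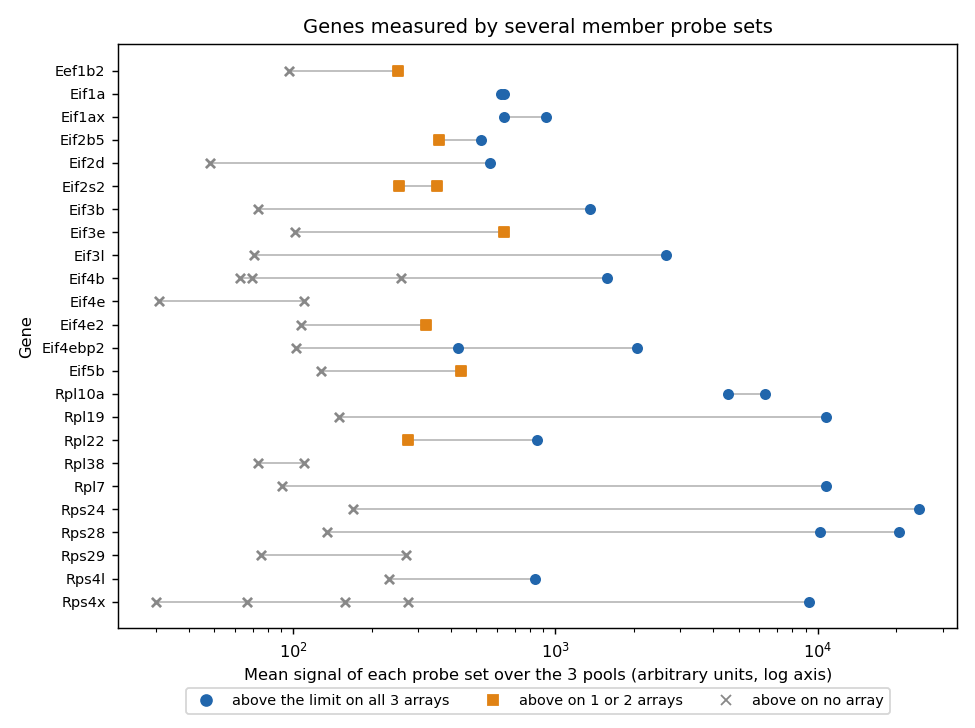
Mean signal over the 3 pools of each probe set (log axis, deposited intensity units) for the 24 member genes with 2 or more sets, as annotated, in order of symbol. Blue circles are above the background limit on all arrays, orange squares on 1 or 2 and grey crosses on none. In 11 of the 24 rows a blue circle and a grey cross stand together.

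Members were spread over 20 chromosomes, with 9 genes on chromosome 7, 7 each on chromosomes 2 and 5, 4 on X and 1 on Y.

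Other parts of the translation machinery were described from lists that hold none of the members. Over the array 30.9% of probe sets were above on all arrays. Among the 4704 above on average the median SD was 0.26, and 11.5% had a range over 2-fold. Mitochondrial ribosomal proteins, which build the separate ribosome of that organelle, exceeded the limit on every array in 38 of 76 probe sets and on none in 24. Their median SD was 0.20, and 1 of 44 had a range over 2-fold. Of 31 sets for aminoacyl-transfer RNA synthetases, which load amino acids onto transfer RNA, 17 were above on all arrays, and 0 of 23 had a range over 2-fold. The median SD of the synthetases was 0.28, and that of the lists that follow was, in order, 0.21, 0.21 and 0.26. Ribosome assembly factors were above on all arrays in 13 of 33 sets, with 0 of 16 over 2-fold. The nucleolar protein Ncl had 4233, 3288 and 3448 and Npm1 had 2869.6, 2938 and 2196. For mTOR and S6 kinase signalling 13 of 19 sets were above on all arrays, and 3 of 14 had a range over 2-fold. Among these the kinase Akt1 had 1379.8, 842 and 577, highest in pool 1, and the mTOR partner Mlst8 had 1299, 831 and 1679.7, highest in pool 3. Termination, recycling and poly(A) binding proteins were above on all arrays in 13 of 18 sets, with 1 of 14 over 2-fold, the release factor Gspt1 with 978, 1182 and 555. Tpt1, a message with a terminal oligopyrimidine tract, had 25907, 21262 and 23507, and Larp1, the protein that binds such tracts, had 1666, 1288 and 1428.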

How the data were processed

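Total RNA of 3 wild-type retina pools was measured on Affymetrix U74Av2 arrays, named in the sample titles. The authors deposited 1 linear intensity per probe set and array, 12488 in all, and per the labels no scaling is stated. The condensing software, detection calls and any labelling or scanning batch are not given in the sources used here. Control probe sets (66) served only for the RNA quality ratios. Near-equal trimmed means (2% cut at each end) were found, so the intensities were used as deposited.

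Gene symbols came from GEO's platform annotation, which can be old. A single symbol was given for 10833 probe sets, several for 396 and none for 1193. Of those with a single symbol, 10817 were matched by Entrez number to a RefSeq table (GRCm38.p6), whose symbol was then used. All 115 members matched it, and none of their symbols changed. The files name no genome build, so coordinates are given only for the RefSeq start windows. Values below 1 were set to 1 before log2. The background limit, the 2-fold range, the SD over 3 pools and the share of summed signal were computed in Python 3.11.15 with pandas 2.3.3, numpy 2.4.6, scipy 1.17.1 and matplotlib 3.10.9, and tested on simulated data. The number of arrays limits the precision. With 1 group, no p-value was computed.

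Members and lists were chosen with earlier results of these data known. Values in every pool are given, by rule, for members with a range over 2-fold, for the narrowest and widest member of each role group, for a list of core factors and for genes whose probe sets disagree on the highest pool. Other members were named to show how probe sets of a gene or subunits of a complex compare, after their values were seen. The groups of ribosomal protein paralogs and of Eif2a with Eif2d, the place of Eef1akmt1, and the searches for tracts near the start and for CGGAAG were added after the values were seen. Planned protein features were not run. Alternatives were median centring, quantile normalization, a floor of 50, plain probe sets only, limits at the 75th and 95th percentile, 1 probe set per gene, members above the limit only, and each pool left out.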

Additional observations from a re-analysis of the deposited data

Results flagged for a closer look

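Probe sets annotated with several gene symbols, at least 1 of them a ribosomal protein or translation factor symbol, are outside the module by its rule and entered none of its results. They nevertheless carried signal: 30 of these 40 probe sets were above background on all 3 arrays, and 7 were above it on none. They held 2.75%, 2.79% and 2.53% of the summed signal in pools 1, 2 and 3. Their signal cannot be assigned to a single gene.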

How the results depend on the processing

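The count of members above background on all arrays was 57 of 115. It was 50 with the limit at the 95th percentile and 66 at the 75th, and the array's shares at those limits were not computed. With plain probe sets only it was 48 of 90 and with 1 probe set per gene 52 of 84, so these counts have smaller totals. In the other alternatives it was 57 or 58. The median SD of 0.20 lay between 0.17 and 0.25 under every alternative run. Without pools 1, 2 and 3 in turn it was 0.19, 0.17 and 0.18, against 0.23, 0.21 and 0.20 over the array. After quantile normalization it was 0.25. The array's median SD on that scale was not computed, so the gap to the array is not known there. The count of members with a range over 2-fold, 3 as reported, was 12 of 78 with the limit at the 75th percentile, where the array had 17.9%, and between 1 and 3 when a pool was left out, the 1 being without pool 3. Median deviations (log2) moved most, given here over all 49 ribosomal protein and 66 factor probe sets, those under the limit included, unless stated otherwise. With median centring they were 0.11 in pool 1 and 0.0042 in pool 2 for ribosomal proteins, and 0.087 in pool 1 and −0.028 in pool 2 for factors. With quantile normalization they were 0.19 in pool 2 and −0.21 in pool 3 for ribosomal proteins, and the share of summed signal was 4.42% in pool 2 and 3.45% in pool 3. With 1 probe set per gene, and with members above the limit only, the ribosomal protein deviation in pool 2 was −0.030. With plain probe sets only, the share of summed signal was 2.72%, 2.61% and 2.57% in pools 1, 2 and 3. Leaving out a pool gave ribosomal protein deviations of 0.026 to 0.041 in pool 1, −0.026 to 0.085 in pool 2 and −0.085 to −0.041 in pool 3, and factor deviations of −0.015 to 0.037 in pool 1, 0.015 to 0.017 in pool 2 and −0.037 to −0.017 in pool 3. The cause of these movements was not tested. No paired analysis was possible because all samples belong to 1 group. No depth is attached to an array, and signal over background limits what the 44 member probe sets above it on no array can show.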
